A study of Mus musculus with 4 samples.

Results

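The genes described here are 8 genes of sterol synthesis and its control: Fdps, Hmgcs1, Sqle, Idi1, Fdft1, Insig1, Srebf2 and Lss. They were taken by symbol from the 31053 mouse features of the count matrices, and each symbol matched 1 feature, so all 8 were found. Fdps was picked because its RNA was lower in the mononuclear phagocytes of Il1a-/- hosts than in those of wild-type (WT) hosts, and the others because they belong to the same pathway. The comparison of genotypes in phagocytes therefore chose the set, and it is given below as a description without a test.

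Single-cell RNA was counted in 4 mammary tumours, each of them 1 sample, taken on day 14 after HER2+ H605 mouse mammary tumour cells had been injected into the mammary pad. All hosts were FVB/NJ mice for which the labels give an age of 6 to 8 weeks. In 2 hosts the genotype was WT and in 2 it was IL1α-/-, written Il1a-/- here; no other allele or agent is named. The transplanted tumour cells were the same in both groups, so the knockout lay in the host's own cells, which include the phagocytes, lymphocytes and fibroblasts. The series asks how interleukin 1α from the host acts on the immune cells of the tumour.

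Cells make cholesterol from acetyl-CoA through the mevalonate pathway. Hmgcs1 acts near its start, Idi1 and Fdps make the isoprenoid farnesyl diphosphate, and Fdft1, Sqle and Lss turn it into the first sterol; farnesyl diphosphate also feeds protein prenylation and the synthesis of ubiquinone and dolichol. The transcription factor SREBP2, encoded by Srebf2, switches these genes on when membrane sterols are low, and the protein encoded by Insig1 holds it back when sterols are plentiful. In macrophages the same system stands against the LXR receptors, which promote cholesterol efflux.

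Cells were sorted into classes by a marker gate. A cell entered the class whose marker list held the most of its UMIs (unique molecular identifiers, each 1 captured transcript), if that list had at least 3 UMIs from at least 2 genes and at least 3 times the sum of any other list. Levels are UMIs per 1000000 mouse UMIs of the class (CPM), and values are given for replicates 1 and 2 in that order. The libraries held 6705368 to 29001333 UMIs and 3130 to 3878 called cells, and both Il1a-/- libraries were shallower than both WT libraries. Phagocytes numbered 392 and 696 in the WT libraries and 160 and 384 in the Il1a-/- libraries, T and natural killer (T/NK) cells 2203 to 2314 in each library, fibroblasts 215 to 351 and plasmacytoid dendritic cells 79 to 176. Each of these classes held the UMIs of its own marker list at a higher level than those of any other list. The gate itself fixes this outcome, so it is no check of the classes. Phagocytes held 62 and 83 UMIs of Il1a in the WT libraries and 1 and 0 in the Il1a-/- libraries. Pairs of libraries shared 0 to 5 cell barcodes.

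The promoters of 4 of the genes are shown because in phagocytes Hmgcs1, Idi1 and Srebf2 lay lower and Insig1 higher in Il1a-/- hosts. Each is the stretch of 250 bases before the gene's start in RefSeq (GRCm38.p6), read 5′ to 3′; the table used here held 5 of the 8 genes. Capitals mark matches on either strand to the core of the sterol regulatory element, searched as TCACNCCA, and to the CCAAT box, searched as CCAAT and read as ATTGG on the other strand.
Hmgcs1, chr13:119690101-119690350, plus strand: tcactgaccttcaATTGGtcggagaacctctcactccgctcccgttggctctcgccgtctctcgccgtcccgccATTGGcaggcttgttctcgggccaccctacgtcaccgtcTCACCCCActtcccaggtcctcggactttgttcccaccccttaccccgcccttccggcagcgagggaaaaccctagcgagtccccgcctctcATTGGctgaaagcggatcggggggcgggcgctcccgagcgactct
Srebf2, chr15:82147019-82147268, plus strand: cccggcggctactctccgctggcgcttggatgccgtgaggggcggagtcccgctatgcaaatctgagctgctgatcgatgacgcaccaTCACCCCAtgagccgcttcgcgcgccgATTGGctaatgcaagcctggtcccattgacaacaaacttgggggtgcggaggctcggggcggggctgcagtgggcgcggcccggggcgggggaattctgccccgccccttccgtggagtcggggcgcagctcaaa
Idi1, chr13:8885356-8885605, plus strand: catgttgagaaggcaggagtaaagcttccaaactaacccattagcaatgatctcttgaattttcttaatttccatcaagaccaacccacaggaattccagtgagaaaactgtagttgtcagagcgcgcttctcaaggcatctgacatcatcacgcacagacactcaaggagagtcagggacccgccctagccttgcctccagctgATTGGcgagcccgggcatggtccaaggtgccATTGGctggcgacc
Insig1, chr5:28071162-28071411, plus strand: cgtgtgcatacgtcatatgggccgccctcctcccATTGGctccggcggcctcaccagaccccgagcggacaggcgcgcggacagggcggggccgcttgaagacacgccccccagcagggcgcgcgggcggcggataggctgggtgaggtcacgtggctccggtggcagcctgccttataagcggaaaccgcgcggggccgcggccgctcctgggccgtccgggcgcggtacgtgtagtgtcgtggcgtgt
Hmgcs1 held 1 match to the sterol element core, beginning 137 bases before the start, and Srebf2 held 1, beginning 162 bases before it. None was found in this window for Idi1, Insig1 or Lss, which says only that these letters are not there. Of all 32851 RefSeq promoters of the same length, 3.67% held such a match and 33.8% a CCAAT box. The box occurred 3 times in Hmgcs1, 2 times in Idi1 and 1 time each in Srebf2, Insig1 and Lss. No match to either motif overlapped one to the other.

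In mononuclear phagocytes, the synthesis genes lay lower in Il1a-/- hosts as a group, while Insig1 lay higher. Fdps (ENSMUSG00000059743; GRCm38 chr3:89093588-89101959, minus strand), the enzyme that makes farnesyl diphosphate, was counted with 85 and 181 UMIs in the WT libraries and 3 and 17 in the Il1a-/- libraries. These are 43.1 and 47.8 CPM against 8.96 and 10.1 CPM, so both WT libraries stood far above both Il1a-/- libraries and replicates lay close together. The mean was 45.4 ± 3.33 CPM (SD, n = 2) in WT and 9.52 ± 0.789 CPM (SD, n = 2) in Il1a-/- hosts, which is -2.14 (SE 0.31) as a log2 fold change. The lower value in the first Il1a-/- library rests on 3 UMIs. Gm43738, which overlaps Fdps on the same strand, had 0 or 1 UMI in every class and library examined; how reads in the shared stretch were assigned was not tested.

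Enzymes ahead of Fdps in the pathway lay on the same side. Hmgcs1 (chr13:119690379-119708260), which makes HMG-CoA, stood at 80.1 and 57.8 CPM in WT and at 23.9 and 25.5 CPM in Il1a-/- phagocytes. Idi1 (chr13:8885501-8892451), the isomerase just before Fdps, stood at 47.7 and 40.9 CPM in WT and at 5.98 and 15.4 CPM in Il1a-/- phagocytes. In Il1a-/- replicate 1, Hmgcs1 rests on 8 UMIs and Idi1 on 2. For both genes the 2 groups did not overlap, with log2 fold changes of -1.38 (SE 0.28) for Hmgcs1 and -1.65 (SE 0.34) for Idi1.

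Past the branch point the counts were small. Fdft1 (chr14:63145150-63179578), squalene synthase, had 25 and 46 UMIs in WT and 2 and 4 in Il1a-/- phagocytes, or 12.7 and 12.1 CPM against 5.98 and 2.37 CPM. It overlaps Ctsb on the other strand, as Hmgcs1 overlaps Gm48342 and Lss 4930483K19Rik, and whether the counting used strand is not given in the sources used here. Sqle (chr15:59315077-59331192), the epoxidase that is another control point of the pathway, had 36 and 50 UMIs in WT and 0 and 3 in Il1a-/- phagocytes. Pooled over libraries, the Sqle level in Il1a-/- phagocytes was 9.94% of that in WT (95% exact interval 2.01% to 30.04%, counting error only). Lss (chr10:76531588-76557138), lanosterol synthase, had 6 and 12 UMIs in WT and 0 and 1 in Il1a-/- phagocytes, a pooled level of 15.8% (interval 0.380% to 100.3%). Lss was too sparse for the low-count filter and has no fitted value.

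The 2 regulators lay on opposite sides. Srebf2 (chr15:82147181-82205379) stood at 45.1 and 41.5 CPM in WT and at 26.9 and 30.2 CPM in Il1a-/- phagocytes, a smaller difference than that of Fdps, with a log2 fold change of -0.49 (SE 0.25). Insig1 (chr5:28071363-28078662), the brake on SREBP2, stood at 51.2 and 40.1 CPM in WT and at 74.7 and 61.1 CPM in Il1a-/- phagocytes, with a log2 fold change of 0.59 (SE 0.24). Of the 7 members past the filter, 6 were lower and 1 higher in Il1a-/- hosts without overlap, and Lss, not past it, was lower too. The filter can keep a gene through the group in which it is high. Among all 8940 genes tested in phagocytes, 27.9% were lower and 19.9% higher without overlap. Only Fdps among them had an adjusted p under 0.05, in a fit where 0.0336% of genes had one in the lower direction; since Fdps was chosen on this comparison, nothing is read from that count.

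**Figure D1:**
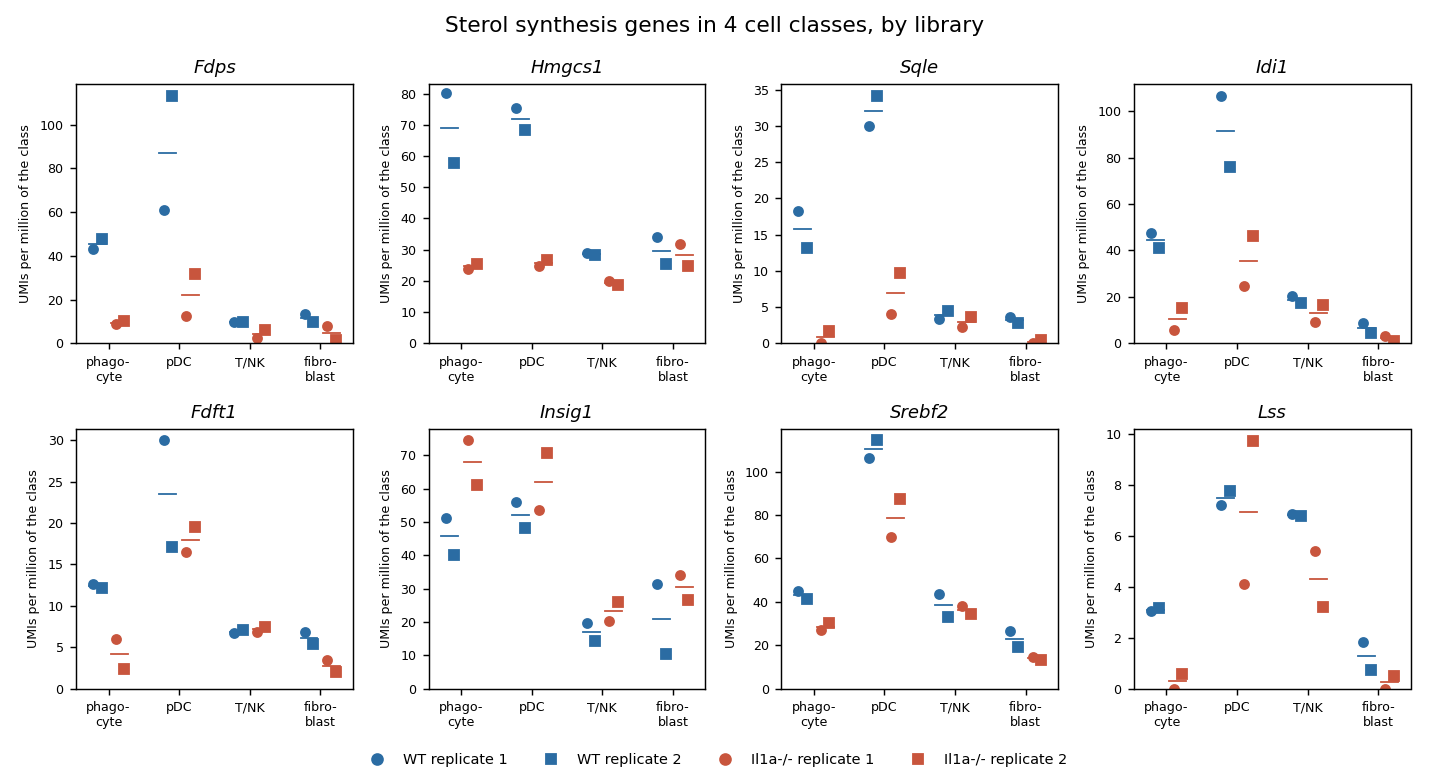
Level of each of the 8 genes (vertical axes, CPM) in phagocytes, plasmacytoid dendritic cells (pDC), T/NK cells and fibroblasts; each point is 1 library and each line the mean of 2 libraries. In phagocytes Fdps lies at 43.1 and 47.8 in WT against 8.96 and 10.1 in Il1a-/- hosts, and Insig1 lies higher in Il1a-/- hosts.

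The rest of the pathway was read from 7 lists with 47 further genes. In the rest of the mevalonate arm, 4 of 5 enzymes passed the filter, and these 4 were lower in Il1a-/- phagocytes without overlap. Mvk, mevalonate kinase, had 15 and 37 UMIs in WT and 1 and 5 in Il1a-/- phagocytes. These are 7.60 and 9.77 CPM against 2.99 and 2.96 CPM. In the rest of the cholesterol arm, 6 of 9 tested enzymes were lower without overlap and 0 were higher. Beside these counts, 27.9% of all genes tested in phagocytes were lower and 19.9% higher without overlap. Cyp51, the lanosterol demethylase, had 94 and 173 UMIs in WT and 4 and 33 in Il1a-/- phagocytes. Lbr (log2 fold change 0.09), Nsdhl (0.17) and Hsd17b7 (0.04) overlapped between the groups.

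The sum over the 21 synthesis enzymes shows the size of the difference. Their summed level was 669 and 573 CPM in WT phagocytes and 299 and 310 CPM in Il1a-/- phagocytes. Without Fdps the sums were 626 and 526 CPM against 290 and 299 CPM, so the groups stayed apart by about the same amount. Of the 18 enzymes past the filter, 15 were lower without overlap and 0 higher, beside 27.9% and 19.9% of all genes tested. Their median log2 fold change was -0.99, against -0.02 over all genes tested.

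Branches and control genes gave other values. The isoprenoid branch, which uses farnesyl diphosphate for prenylation, dolichol and ubiquinone, had a median log2 fold change of 0.00 over 8 tested genes. Of these, 2 were lower and 2 higher without overlap, beside 27.9% and 19.9% of all genes tested. Ggps1, which extends farnesyl to geranylgeranyl diphosphate, had 17.7 and 13.996 CPM in WT and 32.9 and 21.9 CPM in Il1a-/- phagocytes. Among 5 genes of SREBP control, 0 were lower and 1 higher without overlap, and the median was 0.15. Of 5 genes of uptake and transport, 3 were lower and 0 higher without overlap, with a median of -0.33. In the fatty acid arm, 2 of 5 tested genes were lower and 0 higher without overlap, with a median of -0.44. Stard4, a sterol carrier and SREBP target, had the lowest fold change of the transport list. It had 56 and 77 UMIs in WT and 3 and 10 in Il1a-/- phagocytes. In T/NK cells Stard4 went the other way, at 29.8 and 25.6 CPM in WT and 49.0 and 35.4 CPM in Il1a-/- cells.

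Of 7 genes of efflux and LXR signalling, 4 were higher and 2 lower without overlap, beside 19.9% and 27.9% of all genes tested. Abca1, the main cholesterol exporter of macrophages, had 251 and 208 CPM in WT and 290 and 355 CPM in Il1a-/- phagocytes. Soat1, which stores cholesterol as ester, had 193 and 167 CPM against 272 and 257 CPM. Apoe, a carrier of exported cholesterol, went the other way, with 10708 and 3831 CPM in WT and 1548 and 2575 CPM in Il1a-/- phagocytes. Its WT libraries differed from each other by more than the Il1a-/- libraries did.

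**Figure D2:**
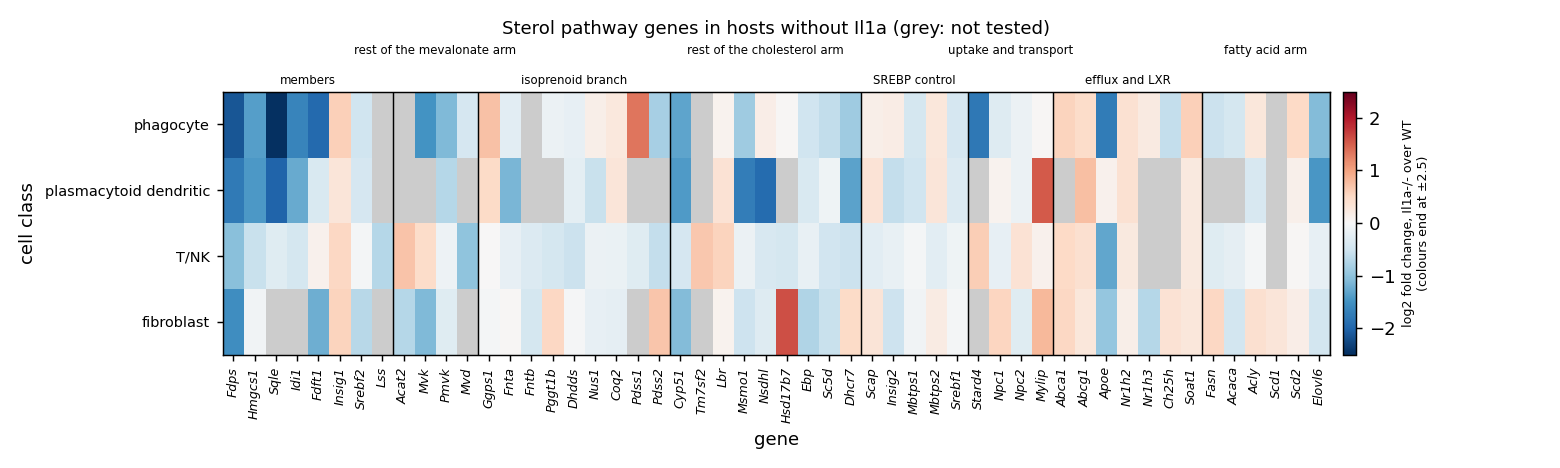
Log2 fold change of Il1a-/- over WT (colour, ending at ±2.5) for the 8 members and genes of the 7 pathway lists (columns, without those not reported here) in 4 cell classes (rows); grey genes did not pass the low-count filter. In phagocytes and plasmacytoid dendritic cells most synthesis enzymes are blue, that is lower in Il1a-/- hosts, while Insig1 is not.

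Several other measures moved with genotype. The median mitochondrial share of called cells was 3.26% and 3.32% in WT and 2.29% and 2.44% in Il1a-/- libraries; its part in the results was not tested. The share of phagocytes with at least 2 UMIs of C1qa, C1qb and C1qc, markers of differentiated macrophages, was 57.9% and 59.5% in WT and 26.3% and 34.4% in Il1a-/- hosts. Splitting the class by this gate left Fdps low on both sides. Among C1q phagocytes it stood at 55.1 and 49.5 CPM in WT against 16.8 and 10.4 CPM in Il1a-/- hosts (log2 fold change -2.14, SE 0.40). Among C1q-low phagocytes it stood at 22.2 and 45.1 CPM against 4.63 and 9.85 CPM (-1.89, SE 0.55). In Il1a-/- replicate 1 these levels rest on 2 UMIs among C1q and 1 UMI among C1q-low phagocytes. In Il1a-/- replicate 2 they rest on 7 and 10 UMIs. Insig1 overlapped between the genotypes in both gates, at 48.7 and 36.5 CPM in WT against 42.1 and 73.0 CPM in C1q phagocytes and at 55.5 and 45.8 CPM against 92.7 and 53.2 CPM in C1q-low phagocytes. The 21 enzymes summed to 707 and 577 CPM against 252 and 277 CPM in the first gate and to 604 and 568 CPM against 324 and 331 CPM in the second. Cycling cells, those with at least 2 UMIs over 10 cell cycle genes, made up 5.61% and 6.32% of WT and 2.5% and 2.08% of Il1a-/- phagocytes. Without them the log2 fold change of Fdps was -2.07. These gates were applied after the data had been seen. Both need a fixed number of UMIs. The median phagocyte held 3989 and 4225.5 UMIs in WT and 1729.5 and 3624.5 in Il1a-/- libraries. The part of depth in the shares was not tested.

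RNA of other cells also differed. Tumour epithelial markers summed to 21.8 and 21.7 CPM in WT phagocytes, with 8 of 10 genes seen and Krt19 and Erbb2 at 0, and to 8.96 and 0.593 CPM in Il1a-/- phagocytes, with 1 of 10 seen in each library. Tumour cells of the WT libraries held Fdps at 96.1 and 147 CPM. If Fdps came in proportion to these markers, tumour RNA would bring 0.312 and 0.280 CPM of Fdps into WT phagocytes. The measured levels were 43.1 and 47.8 CPM. Fibroblast markers, all 8 of them seen in each WT library, summed to 56.8 and 58.9 CPM in WT phagocytes, and 2 and 6 of 8 were seen in Il1a-/- phagocytes, at 11.95 and 30.2 CPM. Fibroblast RNA at that level would bring at most 0.0178 CPM of Fdps. Markers of plasmacytoid dendritic cells, which also hold much Fdps, were higher in Il1a-/- phagocytes, at 56.8 and 7.12 CPM (6 and 5 of 8 seen) against 5.07 and 3.17 CPM in WT (5 of 8 seen in each). Free RNA was taken from barcodes with at most 100 UMIs. It held Fdps at 22.8 and 27.3 CPM in the WT libraries and at 10.8 and 4.90 CPM in the Il1a-/- libraries. The part of free RNA, or of RNA from these other cells, in the phagocyte levels was not tested.

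**Figure D3:**
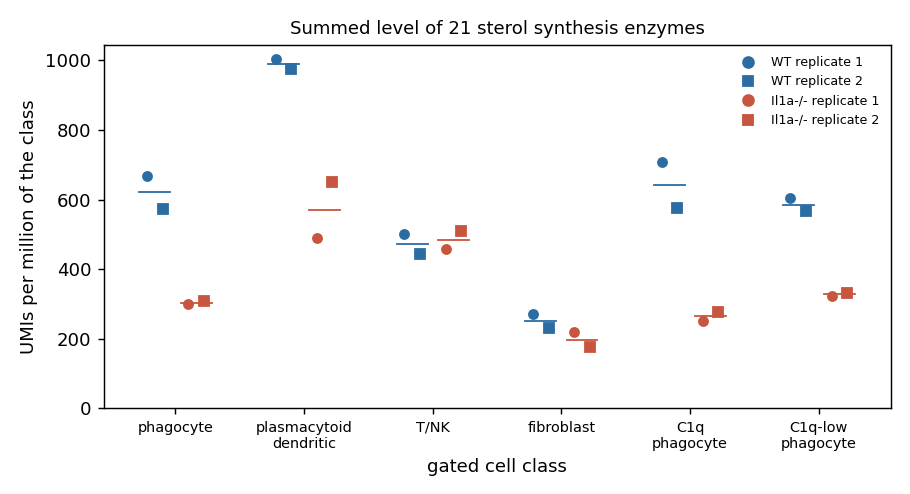
Summed level of 21 sterol synthesis enzymes (vertical axis, CPM) by class and phagocyte gate; points are libraries and lines the means of 2 libraries. The Il1a-/- libraries lie below the WT libraries in phagocytes, both phagocyte gates, plasmacytoid dendritic cells and fibroblasts, and the groups overlap in T/NK cells. The T/NK sums include Lbr, which was higher in Il1a-/- T/NK cells without overlap.

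The other classes came from the same 4 tumours. Fdps was picked on its phagocyte values, but the genes were chosen with earlier results of these data known, so these classes are not fully independent of the choice. In them genotype was tested in edgeR by quasi-likelihood. The p was adjusted over all genes of the class after Benjamini and Hochberg, with a threshold of 0.05. The labels add that tumours were collected in pairs on separate days, so p-values measure a spread between 2 tumours per group that can include the day. In plasmacytoid dendritic cells, which make type I interferon, 6 of the 7 members tested were fitted lower and 1 higher, beside 2944 and 2905 of all genes. Of the 7 members 0 passed the threshold, where 1.33% of 5849 genes did (0.205% lower and 1.13% higher). At an unadjusted p under 0.05, 4 members were lower, Fdps, Hmgcs1, Sqle and Idi1, beside 5.92% of all genes, and 0 were higher, beside 9.2%. DESeq2, which gave an adjusted p for 1 member, called 0.

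Fdps had 59 and 73 UMIs in WT and 3 and 13 in Il1a-/- plasmacytoid dendritic cells, or 61.0 and 113 CPM against 12.4 and 31.6 CPM. The groups did not overlap, yet replicates differed widely within each group, and Fdps missed the threshold (log2 fold change -1.77, SE 0.45, adjusted p = 0.0853). Hmgcs1 stood at 75.5 and 68.2 CPM in WT against 24.7 and 26.8 CPM in Il1a-/- cells, with closely spaced replicates (log2 fold change -1.44, SE 0.34, adjusted p = 0.0686). Sqle stood at 29.99 and 34.1 CPM against 4.12 and 9.73 CPM (adjusted p = 0.0995), and Idi1 at 107 and 76.0 CPM against 24.7 and 46.2 CPM (adjusted p = 0.105). Fdft1, Insig1 and Lss overlapped between the groups, and Srebf2 stood at 107 and 115 CPM against 70.1 and 87.6 CPM. Across the members, 5 of the 7 tested were lower without overlap, beside 24.3% of all genes tested in this class.

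Of the 15 synthesis enzymes tested in plasmacytoid dendritic cells, 14 were fitted lower and 1 higher, beside 2944 and 2905 of all 5849 genes. Msmo1, the sterol methyl oxidase after Cyp51, was the 1 that passed the threshold. It had 77 and 41 UMIs in WT and 5 and 9 in Il1a-/- cells, which in edgeR gave -1.72 as log2 fold change (SE 0.37, adjusted p = 0.0462). Mylip, a ubiquitin ligase induced by LXR, rose from 32.1 and 29.5 CPM to 61.8 and 107 CPM (log2 fold change 1.53, SE 0.33, edgeR adjusted p = 0.0469). Both calls lay just under the threshold, and each was lost when 1 library was left out: Msmo1 without WT replicate 1 (adjusted p = 0.0529) or Il1a-/- replicate 2 (0.0546), and Mylip without Il1a-/- replicate 2 (0.337). The adjusted p ranged from 0.00179 to 0.0546 for Msmo1 and from 3.15e-05 to 0.337 for Mylip over 10 alternatives each. Of the 15 synthesis enzymes tested here, 10 were lower and 1 higher without overlap, beside 24.3% and 21.7% of all genes. Their median was -1.26, against -0.01 for all genes. The sum over the 21 enzymes was 1004 and 975 CPM in WT and 491 and 650 CPM in Il1a-/- cells. Tumour markers in this class overlapped between the groups, 18.6 and 27.9 CPM in WT and 8.25 and 19.5 CPM in Il1a-/- cells, with 4 of 10 and 1 of 10 genes seen and Krt19, Krt7, Cldn3 and Cldn7 at 0 in all 4 libraries. B and plasma cell markers were higher in Il1a-/- cells, at 243 and 265 CPM against 138 and 129 CPM in WT; these UMIs were all of Iglc2, and the other 5 of 6 markers were at 0 in every library. The part of such RNA in the levels of the members was not tested.

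In T/NK cells 0 of 8 members passed the threshold, beside 4.7% of 11036 genes (1.85% lower and 2.85% higher). DESeq2 also called 0 of 8. At an unadjusted p under 0.05, Fdps and Hmgcs1 were lower, beside 12.1% of all genes, and Insig1 higher, beside 12.5%. Fdps had 76 and 115 UMIs in WT and 9 and 50 in Il1a-/- T/NK cells, or 9.85 and 9.86 CPM against 2.56 and 5.92 CPM. Its WT replicates agreed and its Il1a-/- replicates did not (log2 fold change -1.04, SE 0.34, adjusted p = 0.118). Hmgcs1 stood at 29.0 and 28.4 CPM in WT and 19.9 and 18.6 CPM in Il1a-/- cells, a small difference with close replicates (log2 fold change -0.55, SE 0.17, adjusted p = 0.102). Insig1 stood at 19.6 and 14.2 CPM against 20.2 and 26.0 CPM (adjusted p = 0.197). Idi1 and Lss were lower without overlap, while Sqle, Fdft1 and Srebf2 overlapped; 32.5% of all genes tested were lower without overlap and 24.5% higher.

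Leaving out Il1a-/- replicate 2 brought Fdps in T/NK cells past the threshold, at -1.92 on the log2 scale and an adjusted p of 0.00349. Fitted with no low-count filter (-1.06, adjusted p = 0.00540) or with the replicate number as a block (-1.10, adjusted p = 0.00930), all 4 libraries gave a call too; over 17 alternatives its adjusted p ran from 0.00349 to 0.978. The 21 enzymes summed to 500 and 443 CPM in WT and 458 and 510 CPM in Il1a-/- T/NK cells, with overlap. Lbr alone held 166 and 134 CPM of these sums in WT and 208 and 220 CPM in Il1a-/- cells. The overlap of the sums therefore does not show that the other enzymes were level. Of the 21 enzymes, 10 were lower and 3 higher without overlap, Lbr among the 3, beside 32.5% and 24.5% of all genes tested. Their median was -0.30, against -0.02 over all genes. Plasmacytoid dendritic markers summed to 75.7 and 94.7 CPM in WT T/NK cells (7 and 8 of 8 seen) and to 32.5 and 22.5 CPM in Il1a-/- T/NK cells (5 of 8 seen in each, with Klk1 and Cd300c at 0 in both). RNA of that class at this level would bring 0.460 and 0.971 CPM of Fdps into the WT libraries. Tumour markers in T/NK cells summed to 24.1 and 18.4 CPM against 6.55 and 6.15 CPM, and 8 and 9 of 10 were seen in WT and 3 of 10 in each Il1a-/- library; Krt19 was at 0 in all 4. Tumour RNA at that level would bring 0.345 and 0.239 CPM. How much such RNA adds to the T/NK levels was not tested.

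Apoe fell in T/NK cells. It had 22.4 and 19.0 CPM in WT and 6.55 and 9.23 CPM in Il1a-/- T/NK cells (log2 fold change -1.29, SE 0.23, edgeR adjusted p = 0.0275). It lost its call without WT replicate 1 (adjusted p = 0.113) or WT replicate 2 (0.0691), and within CD8 T cells (log2 fold change -0.95, 0.327), natural killer type cells (-0.63, 0.247) and cycling T/NK cells (-0.63, 0.644), over a range of 2.29e-06 to 0.644 in 17 alternatives. Apoe is abundant in the phagocytes of the same libraries, at the levels given above, and phagocyte markers in T/NK cells stood at 0.707% and 0.802% of their phagocyte level in WT and at 1.25% and 0.876% in Il1a-/- libraries. The part of phagocyte RNA in the T/NK level of Apoe was not tested.

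The makeup of the T/NK class differed by genotype: CD8 T cells made up 6.58% and 11.6% of it in WT and 37.1% and 35.6% in Il1a-/- hosts. Within CD8 T cells Fdps stood at 13.6 and 3.23 CPM in WT and at 3.55 and 8.29 CPM in Il1a-/- hosts, with overlap (log2 fold change -0.07, SE 0.70, adjusted p = 0.978); of all 8626 genes tested there, 1.85% passed the threshold, 1.02% lower and 0.835% higher. Within CD4 T cells it had 22 and 32 UMIs against 0 and 4 (log2 fold change -1.94, SE 0.67, adjusted p = 0.124), where 4.21% of 7859 genes passed, 1.23% lower and 2.98% higher. Within natural killer type cells it had 17 and 29 UMIs against 2 and 1, a pooled level of 24.6% of WT (interval 4.89% to 76.4%) with an adjusted p of 0.0670. None of the 3 gates passed the threshold for Fdps, and differences between gates were not tested.

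Hmgcs1 fell in natural killer type cells, from 32.8 and 34.5 CPM to 21.9 and 14.2 CPM (log2 fold change -0.95, SE 0.28, edgeR adjusted p = 0.0295). In that gate 7.7% of 8922 genes fell and 9.33% rose, 17% in all. The adjusted p of Hmgcs1 in T/NK cells and their gates ran from 0.0278 to 0.728 over 17 alternatives. Idi1 in CD4 T cells had 38 and 42 UMIs in WT and 1 and 6 in Il1a-/- hosts, with an adjusted p of 0.0923.

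**Figure D4:**
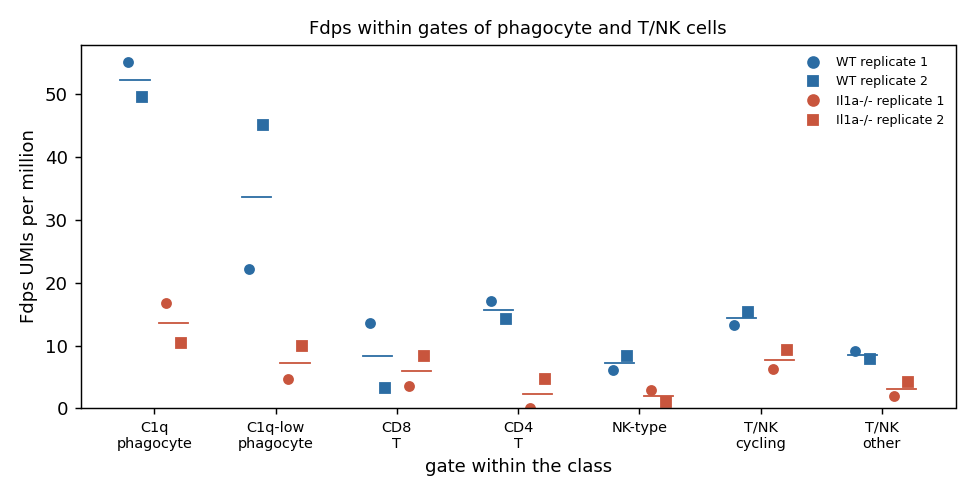
Fdps level (vertical axis, CPM of the gate) in gates within the phagocyte and T/NK classes; points are libraries and lines the means of 2 libraries. WT lies above Il1a-/- in all gates shown but CD8 T cells, where the libraries overlap, 13.6 and 3.23 in WT and 3.55 and 8.29 in Il1a-/- hosts.

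Fibroblasts, the collagen-producing stromal cells, gave no call. Of the 5 members tested 0 passed the threshold, and of all 9980 genes 0 did (0%); at an unadjusted p under 0.05 there were 234 lower (2.34%) and 268 higher genes (2.69%), none of them a member, and DESeq2 called 8 genes, none a member. Fdps had 29 and 28 UMIs in WT and 7 and 3 in Il1a-/- fibroblasts, 13.3 and 9.98 CPM against 7.93 and 1.54 CPM (log2 fold change -1.54, SE 0.70, adjusted p = 0.835). Fdft1 and Srebf2 were also lower without overlap, beside 20.2% of all genes, while Hmgcs1 and Insig1 overlapped. Sqle had 8 UMIs in each WT library and 0 and 1 in the Il1a-/- libraries, a pooled level of 11.01% of WT (interval 0.262% to 70.8%).

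Set beside each other, the genotype contrast in phagocytes minus that in T/NK cells was -1.26 (SE 0.42) for Fdps on the log2 scale. The same difference was -0.82 (SE 0.29) for Hmgcs1, -1.39 (SE 0.33) for Idi1, -2.09 (SE 0.62) for Fdft1 and -3.14 (SE 0.85) for Sqle. For Insig1 it was -0.03 (SE 0.25) and for Srebf2 -0.46 (SE 0.27). Without Il1a-/- replicate 2 the difference was -0.55 for Fdps, -1.17 for Fdft1 and -0.83 for Srebf2, and for Sqle it has no usable size, since the remaining Il1a-/- library held 0 UMIs in phagocytes. Thinned cells gave -0.21 for Srebf2. The genes were chosen on the phagocyte values, so these differences are a description, and the contrasts being subtracted share their tumours.

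Levels of Fdps also differed between cell types within one genotype. In the WT libraries Fdps was highest in tumour epithelial cells (96.1 and 147 CPM), conventional dendritic cells (102 and 64.4 CPM, from 12 and 15 UMIs) and plasmacytoid dendritic cells (61.0 and 113 CPM), which overlapped with each other. Phagocytes followed at 43.1 and 47.8 CPM, below all of these. Fibroblasts (13.3 and 9.98 CPM) and T/NK cells (9.85 and 9.86 CPM) came next and lay next to each other. Neutrophils held 0 UMIs of Fdps, which allows up to 56.6 and 44.1 CPM at their depth. Tumour cells were few in Il1a-/- hosts, 24 and 3 by the gate, and held 6 and 0 UMIs of Fdps, so no comparison of genotypes was made there. Conventional dendritic cells fell short of 20 cells in both Il1a-/- libraries and were likewise not tested.

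Within libraries, phagocytes and T/NK cells were compared with the library as a term of the fit. The phagocyte sums are those on which Fdps was chosen. A gene called lower there has to be well counted in WT phagocytes, so the Fdps test here is not independent of that choice. In edgeR, 5 members were higher and 1 lower in phagocytes, beside 30% and 30.4% of all 10395 genes. Fdps was higher by 2.05 on the log2 scale (SE 0.26, adjusted p = 8.13e-05), Insig1 by 1.61 (SE 0.14, adjusted p = 5.58e-06), Sqle by 1.49 (SE 0.48, adjusted p = 0.0230), Hmgcs1 by 1.11 (SE 0.20, adjusted p = 7.80e-04) and Idi1 by 0.97 (SE 0.26, adjusted p = 0.00927). These values are over all 4 libraries, and the genotypes differed. In the Il1a-/- libraries Idi1 stood at 5.98 and 15.4 CPM in phagocytes and at 9.11 and 16.7 CPM in T/NK cells. Sqle stood there at 0 and 1.78 CPM in phagocytes and at 2.28 and 3.67 CPM in T/NK cells. In these phagocytes Idi1 rests on 2 and 26 UMIs and Sqle on 0 and 3. The limit for a 0 is 8.96 CPM in phagocytes of Il1a-/- replicate 1, so Sqle is not shown to be lower in that library. Lss was lower in phagocytes, with a log2 difference of -1.20 (SE 0.39, adjusted p = 0.0230). Fdft1 (log2 difference 0.48) and Srebf2 (0.18) did not pass the test. The count of 6 called members dropped to 3 without WT replicate 1 and to 3 without WT replicate 2.

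Among further enzymes, Pmvk (log2 difference 1.84), Mvd (2.02), Msmo1 (1.69) and Cyp51 (0.98) were higher in phagocytes, and Lbr (-1.60), Hsd17b7 (-1.52) and Sc5d (-0.71) were lower. Of the 20 synthesis enzymes tested, 11 were higher and 4 lower, beside 30% and 30.4% of all genes. Of the efflux and LXR genes, 6 of 7 were higher in phagocytes, among them Nr1h3, which encodes LXRα, by 6.18.

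Dividing T/NK cells were compared with the others in the same way. Fdps was higher in cycling T/NK cells by 0.96 (SE 0.24, edgeR adjusted p = 0.00341) and Idi1 by 1.24 (SE 0.17, edgeR adjusted p = 1.32e-05). Insig1 was lower, with a log2 difference of -0.52 (SE 0.17, edgeR adjusted p = 0.0185), and so was Srebf2, at -0.42 (SE 0.14, edgeR adjusted p = 0.0239). Sqle (0.78, SE 0.34, edgeR adjusted p = 0.0699), Hmgcs1, Fdft1 and Lss did not pass the test. The 2 higher and 2 lower members stood beside 22.9% and 21% of 9638 genes. Without WT replicate 1, or without Il1a-/- replicate 2, the count of calls was 2. Cycling cells made up 7.49% and 13.1% of T/NK cells in WT and 6.15% and 13.2% in Il1a-/- hosts, with overlap between the genotypes. The gates within the class differed. In natural killer type cells the share was 7.75% and 8.82% in WT against 0.898% and 2.80% in Il1a-/- hosts. In CD4 T cells it was 9.94% and 19.6% against 4.10% and 4.25%. In CD8 T cells it was 13.8% and 16.4% against 13.3% and 28.5%, with overlap. The part of cycling in the levels of these gates was not tested.

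**Figure D5:**
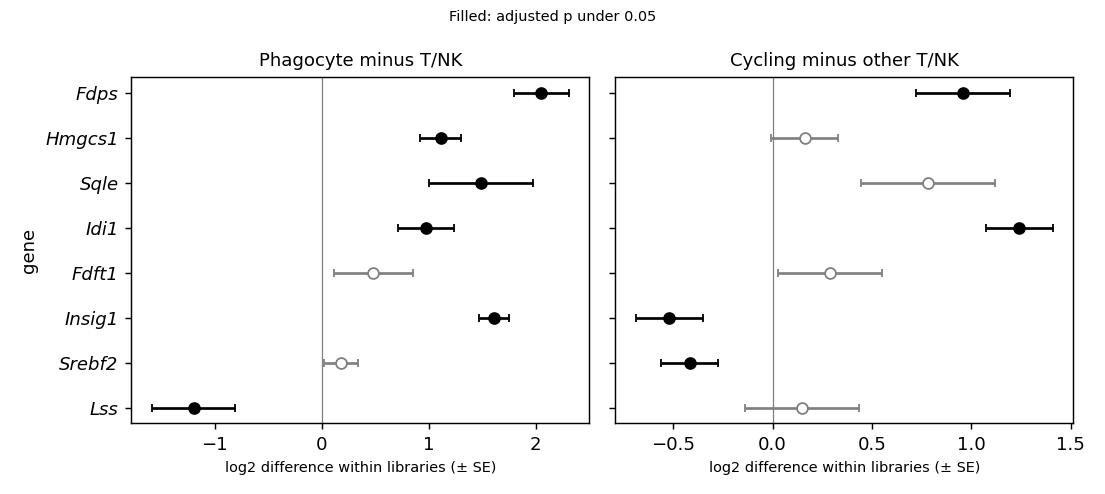
Log2 difference of each gene (horizontal axes, ± SE) between phagocytes and T/NK cells and between cycling and other T/NK cells, within libraries; filled points have an edgeR adjusted p under 0.05. Over all 4 libraries Fdps and Idi1 are higher in phagocytes and in cycling T/NK cells, and Insig1 is higher in phagocytes and lower in cycling T/NK cells.

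Genes were also ranked by how closely their level followed Fdps over the 16 sums of 4 classes in 4 libraries, as Pearson's r of log2(CPM + 1) among 6249 genes with a mean of at least 20 CPM. The closest were Hagh (0.92), a glyoxalase, Msmo1 (0.92), Lman2 (0.91), a cargo receptor of the secretory pathway, Dnajb11 (0.90), a chaperone of the endoplasmic reticulum, and Fibp (0.90). Msmo1 is the 1 sterol enzyme of the 5. Idi1 ranked 16 (r 0.86), Hmgcs1 19 (0.85), Srebf2 132 (0.75) and Insig1 1173 (0.47). Sqle (0.85), Fdft1 (0.77) and Lss (0.47) lay under the minimum level and have no rank. The sums share cells' libraries and depth, so these values describe likeness over these 16 sums only. They include the phagocyte sums on which Fdps was chosen, so the ranks can in part repeat that comparison.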

How the data were processed

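Per the labels' protocols, tumours were digested, live cells were enriched and 10x Genomics 3' v3.1 libraries were made. The deposited values are raw UMI counts per gene and barcode, 6794880 barcodes a matrix, made by the authors with Cell Ranger 3.1.0 and mm10 per the submitters' processing notes, on a joint reference of 64591 features that the deposited feature names show to be human and mouse; mouse counts were used. No deposited cell annotation was used.

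Cells were called as barcodes from 500 UMIs and 250 genes upward whose mitochondrial share did not exceed 20%, without a test for empty droplets. The mitochondrial limit removed 213 and 141 barcodes in WT and 19 and 27 in Il1a-/- libraries. The 0.8% of barcodes per 1000 cells with the highest Scrublet scores (scanpy 1.11.5), 83 to 128 a library, were removed as doublets. The median cell held 3093 and 4160 UMIs (WT) or 1348 and 2883.5 UMIs (Il1a-/-). The tumour is the replicate, so counts were added up per library and class, for classes with at least 20 cells in every library, and fitted over all genes with edgeR 4.0.16 in R 4.3.3 (filterByExpr, TMM, quasi-likelihood test). Standard errors were derived from the F statistic. CPM uses the class total. Pooled ratios carry exact 95% intervals that, like the limit of 3 counts for a 0, cover counting error only. The fits were tested on simulated data.

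Alternatives were DESeq2 1.42.0, other scaling, no low-count filter, stricter cell limits, cells thinned to 1000 UMIs, Leiden clusters (2000 variable genes, 30 principal components, 15 neighbours, igraph 0.11.9) in place of the gate, a replicate block, and each library left out. The genes, the pathway lists and the markers were chosen with earlier results of these data known. From the pathway lists, up to 5 genes per direction past the threshold were to be named in each tested class, with the 5 genes most like Fdps; other pathway genes with values were chosen as examples after their values were seen. Some genes of the lists are counted but not reported by name here. Positions are from GENCODE vM21 (GRCm38) by gene identifier, 1-based. Groups and replicate numbers come from the titles.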

Additional observations from a re-analysis of the deposited data

How the results depend on the processing

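In phagocytes the log2 fold change of Fdps kept its sign in all 15 alternatives, from -2.39 to -1.89; the ends were the fit without Il1a-/- replicate 2 (leave-outs -2.39 to -2.03) and C1q-low phagocytes (-1.89). In T/NK cells Fdps passed the threshold with no low-count filter (-1.06), with the replicate block (-1.10) and without Il1a-/- replicate 2 (leave-outs -1.92 to -0.68). In plasmacytoid dendritic cells it passed with no filter (-1.81), the block (-1.91), Leiden clusters (-1.75) and in 3 of 4 leave-outs (-2.73 to -1.34); thinned cells and DESeq2 gave it no adjusted p there. In fibroblasts it passed in none of 11 alternatives (-2.82 to -0.55). The cause of these changes was not tested. A leave-out keeps 1 library in a group and assumes that it varies like the other group.

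The labels number the tumours 1 and 2 in both groups and speak of 2 pairs collected on separate days without tying the numbers to the days. Deviations of same-numbered libraries correlated at 0.178 in T/NK cells, 0.0340 in phagocytes, 0.399 in fibroblasts and 0.0700 in plasmacytoid dendritic cells, and with 2 pairs and no label tying them, the number was not taken as a pairing. With the replicate block, calls rose from 519 to 2290 genes in T/NK cells, from 18 to 218 in phagocytes and from 78 to 328 in plasmacytoid dendritic cells and stayed at 0 in fibroblasts; 2 members were called in T/NK and 4 in plasmacytoid dendritic cells.

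Other counts of called genes moved too. With no filter they were 1727 in T/NK cells, 538 in phagocytes, 224 in plasmacytoid dendritic cells and 215 in fibroblasts. Leave-outs gave 131 to 1347, 0 to 347, 110 to 196 and 0. In phagocytes DESeq2 called 110, Leiden clusters 10, size factors of DESeq2's kind 9, at most 10% mitochondrial UMIs 9, cells from 1000 UMIs 8 and thinned cells 1. In plasmacytoid dendritic cells Leiden clusters gave 126 and thinned cells 12, and in fibroblasts DESeq2 gave 8. Members called between phagocytes and T/NK cells were 3 with thinned cells and 3 with DESeq2, and 3 to 7 in leave-outs, against 6. Between cycling and other T/NK cells they were 1 with thinned cells, 2 with DESeq2 and 2 to 4 in leave-outs, against 4.

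Small values changed sign. In T/NK cells Fdft1 was -0.87 in CD4 T cells, -0.028 in cycling cells and -0.0024 to 0.17 in leave-outs, and Srebf2 was -0.23 to 0.14 in leave-outs, 0.24 in CD4 T cells and 0.0064 without cycling cells. In fibroblasts Hmgcs1 was -0.26 to 0.14 in leave-outs and 0.090 at 10% mitochondrial UMIs, and Insig1 was -0.032 to 1.53 in leave-outs. Hmgcs1 in cycling T/NK cells was -0.0083 without Il1a-/- replicate 2 and -0.48 with thinned cells. The difference of contrasts for Fdps was -1.42 to -0.55 in leave-outs and kept its sign in all 8 alternatives; for Insig1 it was -0.20 to 0.30 in leave-outs and 0.032 with DESeq2. The gates within classes and the fits without cycling cells were chosen after seeing the data. Nothing was fitted for conventional dendritic cells, since the class fell short of 20 cells. Depth limits the rarer members: 1 UMI is about 3 CPM in the phagocytes of Il1a-/- replicate 1, whose limit for a 0 is 8.96 CPM.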
